A study of Mus musculus with 43 samples.

Results

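The genes of caveolae and of transcytosis across brain endothelial cells (EC) were described in 7 inbred mouse strains. The set held 9 genes, chosen by name, though with earlier results of these data known. They were the caveolins Cav1 and Cav2, the cavins Cavin1, Cavin2 and Cavin3, the neck and scission proteins Ehd2, Ehd4 and Dnm2, and the lipid transporter Mfsd2a. Each was the row of the count table with that gene symbol, 9 of 54532 rows in all. All 9 passed the filter on low values, at least 0.5 CPM (read counts relative to the TMM-scaled library total) in at least 1 library, which 29120 genes passed.

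EC were sorted as CD45-, CD11b-, CD31+ cells from the cortex and the hippocampus of mice aged 2 months, and their RNA was sequenced in 43 libraries. The 5 long-inbred strains were 129S1/SvImJ (9 libraries), A/J (5), C57BL/6J (6), DBA/2J (5) and NOD/ShiLtJ (6), and the 2 recently wild-derived strains were CAST/EiJ (6) and WSB/EiJ (6). There were 16 female and 27 male libraries, 21 from the cortex and 22 from the hippocampus. Titles also carried a tag, high in 29 libraries and low in 14, whose meaning the labels and methods do not give. No library was from a treated or genetically engineered mouse as far as the labels say. Nothing in the labels ties the libraries to individual mice, and the p-values below therefore measure the spread between libraries, part of which may be technical.

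Caveolae are small flask-shaped pits of the plasma membrane that can carry cargo across an endothelial cell. Caveolins are embedded in the membrane and build the pit together with the cavins, which coat it from the cytoplasm. EHD proteins hold the neck of the pit, and dynamin cuts it free. In brain EC caveolae are scarce, and Mfsd2a, which carries lysophosphatidylcholine with omega-3 fatty acids into the brain, is known to keep caveola-mediated transcytosis low at the blood-brain barrier.

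Library totals ran from 1626534 to 49372356 counts, and those of WSB/EiJ were among the smallest (1626534 to 5331064). The share of counts on 3 genes with rRNA-like sequence was 1.59 to 12.1% in female and 12.97 to 29.3% in male libraries, so that sex and this share cannot be told apart. Females gave 6 of 9 libraries in 129S1/SvImJ, 2 of 6 in C57BL/6J, CAST/EiJ, NOD/ShiLtJ and WSB/EiJ, and 1 of 5 in A/J and DBA/2J. The median total was 30897300 counts and the median rRNA-like share 2.59% in 129S1/SvImJ, against 5790701 and 14.2% over all libraries. In fits without covariates a difference of 129S1/SvImJ from other strains is therefore partly mixed with sex. Of the endothelial marker list, 20 of 20 genes were measured, with a mean of 9.48 ± 0.31 (SD, n = 43) on the log2(CPM + 1) scale. Lists of other cell types stood lower, at 6.75 for pericytes, 6.55 for astrocytes, 5.12 for neurons, 3.68 for smooth muscle, 2.17 for oligodendrocytes, 2.01 for fibroblasts and 1.10 for microglia. The sorted cells thus carried RNA of pericytes, astrocytes and neurons as well, and in such bulk samples fewer cells of a type and less RNA per cell cannot be told apart. Reads of all strains were aligned to mm10, the C57BL/6J reference, and the effect of this on the counts of the other strains was not tested.

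Start-site sequences are shown for the 3 genes that differed most among the strains in the tests below (Cav1, Cavin1 and Ehd2) and for Cav2, which lies 17219 bases upstream of Cav1 on the same strand. The windows are RefSeq promoters on GRCm38.p6, 250 bases before to 50 bases after the start, 5′ to 3′ on the strand of the gene, at chr6:17306085-17306384 (+) for Cav1, chr6:17280935-17281234 (+) for Cav2, chr11:100970568-100970867 (−) for Cavin1 and chr7:15967486-15967785 (−) for Ehd2. Capitals mark matches, on either strand, to the GC box GGGCGG, the CCAAT box CCAAT and the TATA box TATAAA.
Cav1: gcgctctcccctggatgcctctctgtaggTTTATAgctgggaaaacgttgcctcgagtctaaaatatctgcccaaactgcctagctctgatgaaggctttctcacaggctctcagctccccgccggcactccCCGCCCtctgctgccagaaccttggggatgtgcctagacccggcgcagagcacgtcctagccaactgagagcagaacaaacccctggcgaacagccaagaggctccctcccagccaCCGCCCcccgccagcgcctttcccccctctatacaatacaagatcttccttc
Cav2: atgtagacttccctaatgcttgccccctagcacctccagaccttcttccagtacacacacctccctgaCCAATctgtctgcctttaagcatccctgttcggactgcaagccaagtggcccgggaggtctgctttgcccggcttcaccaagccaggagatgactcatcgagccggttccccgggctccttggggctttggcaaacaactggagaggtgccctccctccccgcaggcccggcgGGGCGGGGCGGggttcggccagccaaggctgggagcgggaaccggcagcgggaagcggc
Cavin1: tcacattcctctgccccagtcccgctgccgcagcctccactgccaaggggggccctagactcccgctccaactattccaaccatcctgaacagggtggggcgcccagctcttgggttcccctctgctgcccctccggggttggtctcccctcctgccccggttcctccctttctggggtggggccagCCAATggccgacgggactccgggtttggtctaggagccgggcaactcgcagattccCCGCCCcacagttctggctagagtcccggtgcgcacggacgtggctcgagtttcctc
Ehd2: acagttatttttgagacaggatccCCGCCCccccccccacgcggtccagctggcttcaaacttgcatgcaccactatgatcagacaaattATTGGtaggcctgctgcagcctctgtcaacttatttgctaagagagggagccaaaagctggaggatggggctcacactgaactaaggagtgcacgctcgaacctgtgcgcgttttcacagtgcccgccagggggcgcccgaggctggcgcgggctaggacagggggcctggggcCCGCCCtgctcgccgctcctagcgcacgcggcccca

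Promoters were found for 8 of the 9 genes, all but Cavin3. Cav1 and Cavin1 had 2 start sites each, of which the first is shown. The second of Cav1 matched none of the motifs named here, and that of Cavin1 held a GC box and a CCAAT box, like its first. A GC box was present in 6 of these 8 genes, against 35.7% of 32851 single mouse promoters of this length. A CCAAT box was present in 7 of 8, against 37.4%. TATAAA was found in Cav1 alone of the 8, against 13.6% of all promoters. Neither the ETS-type motif CCGGAA nor the E-box CACGTG occurred in any window of the 8 genes (14.9% and 7.15% of all promoters). In Cav2 the pair of GC boxes overlap by a base and form a single run of capitals. These are matches of letters only and say nothing of binding.

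All 9 genes are protein coding. In GRCm38 coordinates they lie at chr4:122946850-122961188 (Mfsd2a, −), chr6:17306335-17341452 (Cav1, +), chr6:17281185-17289115 (Cav2, +), chr11:100956733-100970887 (Cavin1, −), chr1:51289126-51302960 (Cavin2, +), chr7:105480083-105482300 (Cavin3, −), chr7:15946958-15967567 (Ehd2, −), chr2:120089175-120154606 (Ehd4, −) and chr9:21424908-21507759 (Dnm2, +). Whether counting used the strand is not stated. Dnm2 shares 207 exon bases with Tmed1 on the other strand, which held 3641 counts over all libraries (mean 5.27 CPM, against 261 CPM for Dnm2). Cavin3 shares 374 exon bases with Gm45667, which held 0 counts.

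Every member was well expressed: mean CPM ranged from 36.3 for Cavin3, above 85.2% of the genes tested, to 840 for Cavin1, above 99.7% of them. Compared per length of transcript, Cavin1, the cavin that every caveola needs, stood first at 234 ± 74.5 CPM per kb (SD, n = 43) and was the highest member in 42 of 43 libraries. Mfsd2a followed at 87.7 ± 33.0 CPM per kb, level with Cavin2, a cavin that shapes the coat, at 86.7 ± 25.0. Cav1, the main structural caveolin, had 56.4 ± 24.0 CPM per kb, Dnm2, a ubiquitous dynamin, 49.0 ± 11.02, Cav2, the partner of Cav1, 42.7 ± 15.98, and Ehd2, the ATPase at the neck of caveolae, 38.6 ± 17.8. Cavin3 (21.8 ± 12.7 CPM per kb) and Ehd4, a relative of Ehd2 also found on endosomes (mean 17.1, range 1.84 to 60.7), closed the order, and Ehd4 was the lowest member in 29 libraries and Cavin3 in 12. Of the 8 steps in this order, the gap was larger than the larger SD from Cavin1 to Mfsd2a and from Cavin2 to Cav1, and smaller in the other 6.

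The first question was whether these genes differed among strains. In the test across the 7 strains 3 of 9 members differed: Cavin1 (adjusted p = 0.000902), Ehd2 (adjusted p = 0.00147) and Cav1 (adjusted p = 0.0297), by edgeR's quasi-likelihood test with Benjamini-Hochberg adjustment over all 29120 genes. Over all genes 2.68% passed, but most of these genes stood below every member in mean CPM. With a filter of at least 1 CPM in 5 libraries, 903 of 16592 genes passed, a larger share. DESeq2 called the same 3 members. The other 6 did not pass (Cavin3 adjusted p = 0.305, Cavin2 0.484, Ehd4 0.702, and Cav2, Dnm2 and Mfsd2a each 0.82). Strain held 55.1% of the spread of Cavin1 between libraries on the log2(CPM + 1) scale, 50.3% of that of Ehd2 and 42.1% of that of Cav1, against a median of 14.7% over all genes. With 7 groups such a share lies above 0 even where strains do not differ. Of the members that did not pass, Cavin3 (40.8%) and Cavin2 (32.2%) had the highest shares, and Mfsd2a was the lowest at 11.4%. No member passed within the cortex or within the hippocampus alone, where each strain had fewer libraries. Single libraries were left out of A/J, DBA/2J, CAST/EiJ and WSB/EiJ only. Among them, the call of Cav1 was lost without any one of 4 CAST/EiJ libraries (those tagged high) or 2 A/J libraries (the males tagged high), with edgeR adjusted p of 0.0551 to 0.111.

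Cavin1 was highest in CAST/EiJ. Its 6 libraries there held 1299 and 1315 CPM in females, and 1375, 1248, 1123 and 1012 CPM in males, a mean of 1229 ± 136. In the other strains the lowest, median and highest library were 724, 1078 and 1124 CPM in A/J, 717, 924 and 1261 in NOD/ShiLtJ, 544, 767 and 1061 in C57BL/6J, 621, 784 and 962 in DBA/2J, 413, 611 and 995 in 129S1/SvImJ, and 363, 527 and 914 in WSB/EiJ. All 6 CAST/EiJ libraries thus lay above every DBA/2J, 129S1/SvImJ and WSB/EiJ library, and overlapped those of the other 3 strains. In the order of strain means, CAST/EiJ exceeded the next strain, A/J (981 ± 176), by more than the larger SD, and no other neighbours did.

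Ehd2 followed the same order at its ends. CAST/EiJ libraries ranged from 203 to 394 CPM with a median of 319 (mean 312 ± 69.1), and WSB/EiJ libraries from 30.3 to 174 CPM with a median of 115 (mean 117 ± 53.6). Between them stood NOD/ShiLtJ at 260 ± 114, A/J at 239 ± 22.5, with libraries at 269, 243, 210, 246 and 226 CPM, C57BL/6J at 192 ± 60.7, DBA/2J at 165 ± 42.99 and 129S1/SvImJ at 132 ± 55.0. Neighbours in this order did not differ beyond the larger SD.

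Cav1 was highest in CAST/EiJ (182 to 401 CPM, median 324, mean 297 ± 81.6) and next in A/J, whose libraries held 212, 173, 221, 383 and 310 CPM (mean 260 ± 85.1). C57BL/6J was lowest, with 57.9 to 225 CPM and a mean of 133 ± 54.4, and the ranges of CAST/EiJ and C57BL/6J overlapped. CAST/EiJ also had the highest mean of Cav2, Cavin2 and Cavin3, 6 of the 9 members in all, whereas Ehd4 was lowest there (42.4 ± 9.75 CPM) and highest in DBA/2J (95.4 ± 85.1). Strain means of Dnm2 ran from 231 ± 24.8 in NOD/ShiLtJ to 315 ± 59.0 CPM in C57BL/6J and those of Mfsd2a from 158 ± 70.4 in DBA/2J to 233 ± 95.7 CPM in A/J, with no pair of neighbours apart by more than the larger SD.

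**Figure D1:**
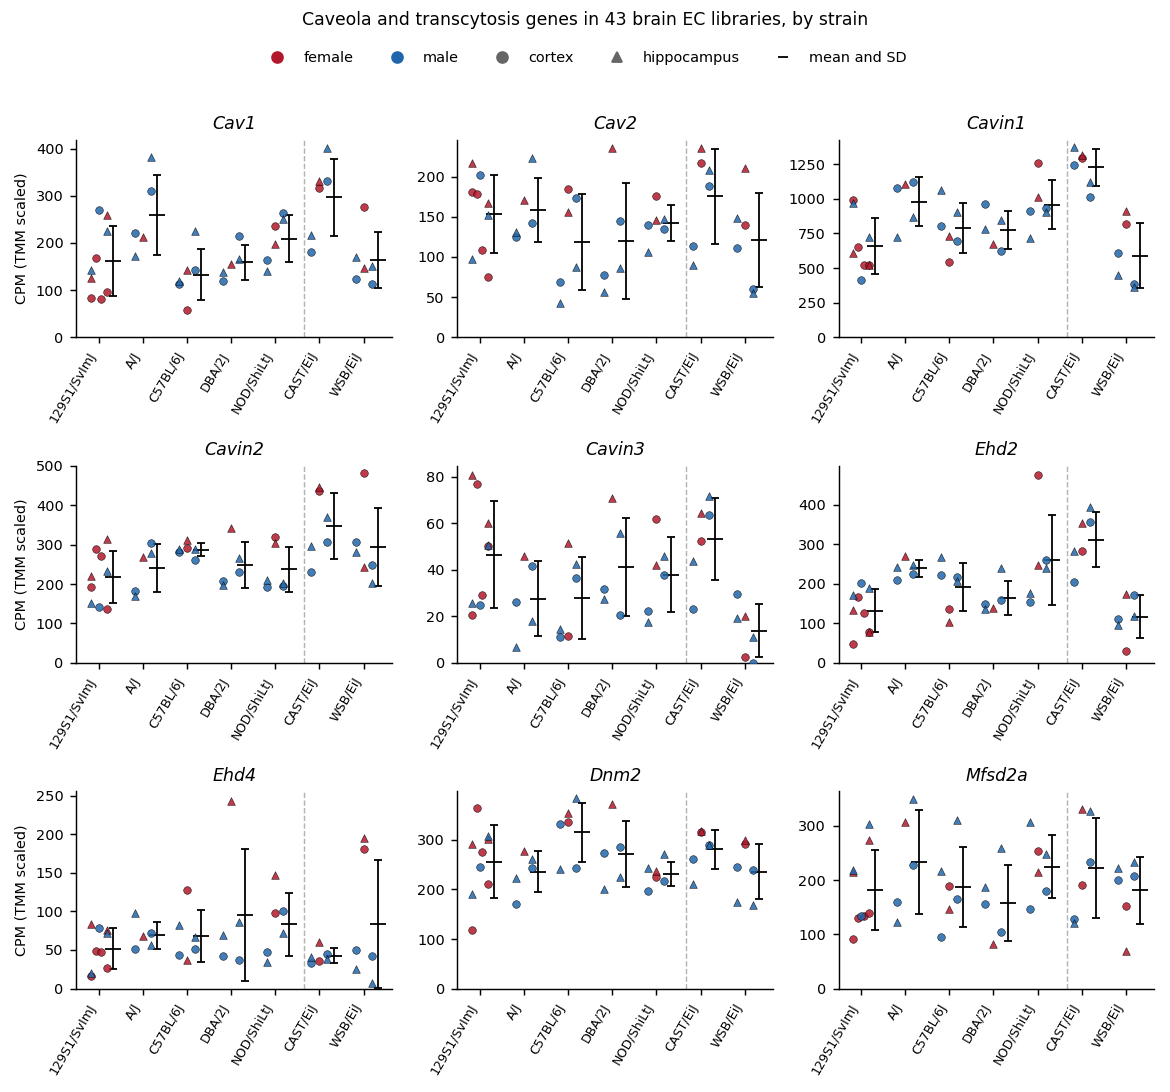
CPM (TMM scaled) of each member in the 43 libraries by strain, a panel per gene with its own axis from 0; colour gives sex, shape gives region, bars give mean and SD, and wild-derived strains stand right of the dashed line. All 6 CAST/EiJ libraries of Cavin1 lie between 1012 and 1375 CPM, above the highest WSB/EiJ library at 914 CPM.

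Each strain was then set against the mean of the other 6. In CAST/EiJ 3 of 9 members were higher, where 1.35% of all genes were called and 0.975% as higher: Cavin1 by 0.66 ± 0.15 (log2, SE; adjusted p = 0.00372), Ehd2 by 0.82 ± 0.21 (adjusted p = 0.0219) and Cav1 by 0.75 ± 0.21 (adjusted p = 0.0383), by edgeR with Benjamini-Hochberg adjustment. The median log2 difference of the 9 members was 0.46, against -0.12 over all genes and 0.02 over the 8679 genes with a mean of at least 10 CPM. For 8 of 9 members the difference was above 0, and Ehd4 was the exception at -0.80 ± 0.37 (adjusted p = 0.423). Cavin3 (0.81 ± 0.38), Cavin2 (0.46 ± 0.17) and Cav2 (0.38 ± 0.24) did not pass. DESeq2 called 1 of the 9 in CAST/EiJ, Cavin1, and not Ehd2 (adjusted p = 0.0646) or Cav1 (adjusted p = 0.0564).

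In WSB/EiJ 2 of 9 members were lower, where 2.41% of all genes were called and 0.680% as lower: Cavin1 by -0.58 ± 0.16 (log2, SE; adjusted p = 0.034) and Ehd2 by -0.83 ± 0.24 (adjusted p = 0.048). Cavin3, a cavin that binds protein kinase C delta, had the largest difference, -1.44 ± 0.46, and did not pass (edgeR adjusted p = 0.0751), while DESeq2 called it. Its WSB/EiJ libraries held 20.2, 2.59, 29.8, 19.4, 0 and 11.04 CPM, and the 37 libraries of other strains 6.92 to 80.7 CPM, so that the groups overlapped. The 4 males of the strain held 606, 448, 387 and 363 CPM of Cavin1 and the females 914 and 822 CPM, and 2 of these 6 values, 387 and 363 CPM, lay below every library of the other strains. The median of the members was -0.25, against -0.72 over all genes and 0.09 over the genes of at least 10 CPM.

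With the median-ratio scaling (RLE) in place of TMM the call of Cavin1 remained in both strains, whereas Cav1 (0.69, adjusted p = 0.0697) and Ehd2 (0.75, adjusted p = 0.0576) missed the threshold in CAST/EiJ and Ehd2 (-0.83, adjusted p = 0.0565) in WSB/EiJ. Of 30 alternatives that kept both regions, Cavin1 in CAST/EiJ was called in 30, Ehd2 in 24 and Cav1 in 20, and in WSB/EiJ Cavin1 was called in 26 and Ehd2 in 13. The fits within a single region are not in this tally: no member passed in any strain in the cortex or the hippocampus alone, where Cavin1 in CAST/EiJ was at 0.59 and 0.70.

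Apart from Cavin1 in CAST/EiJ, each of these calls was lost when certain single libraries were left out. For Cav1 in CAST/EiJ these were any of the 4 CAST/EiJ libraries tagged high, both the female and the male low hippocampal A/J library and the male low cortical DBA/2J library, with edgeR adjusted p of 0.0524 to 0.249 and the smallest difference, 0.65, without the male hippocampal CAST/EiJ library. For Ehd2 in CAST/EiJ they were the female hippocampal and the 2 male libraries tagged high of that strain (edgeR adjusted p of 0.0926 to 0.139, smallest difference 0.74). For Cavin1 in WSB/EiJ they were any of the 4 male libraries of the strain (edgeR adjusted p of 0.0524 to 0.14, smallest difference -0.47). Ehd2 in WSB/EiJ, nearest to the threshold, was lost without 4 of its own 6 libraries, 5 of the 6 CAST/EiJ, 4 of the 5 A/J and 3 of the 5 DBA/2J libraries (edgeR adjusted p of 0.0503 to 0.188), and came to -0.66 without the female cortical WSB/EiJ library, at 30.3 CPM.

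In the other 5 strains edgeR called 0 of 9 members, with 1.46% of all genes called in 129S1/SvImJ, 0.254% in A/J, 0.529% in C57BL/6J, 0.192% in DBA/2J and 0.185% in NOD/ShiLtJ. Of all 29120 genes, 5737 had an unadjusted p under 0.05 in 129S1/SvImJ, 2952 in A/J, 3839 in C57BL/6J, 2773 in NOD/ShiLtJ and 2230 in DBA/2J. At this unadjusted p stood 3 members in 129S1/SvImJ, 1 each in A/J, C57BL/6J and NOD/ShiLtJ and 0 in DBA/2J. DESeq2 called 0 members in each of the 5. The largest of these differences in 129S1/SvImJ were Ehd2 at -0.63 ± 0.20 (adjusted p = 0.0831) and Cavin1 at -0.39 ± 0.13 (adjusted p = 0.107), in A/J Cav1 at 0.53 ± 0.23 and in C57BL/6J Cav1 at -0.60 ± 0.23.

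**Figure D2:**
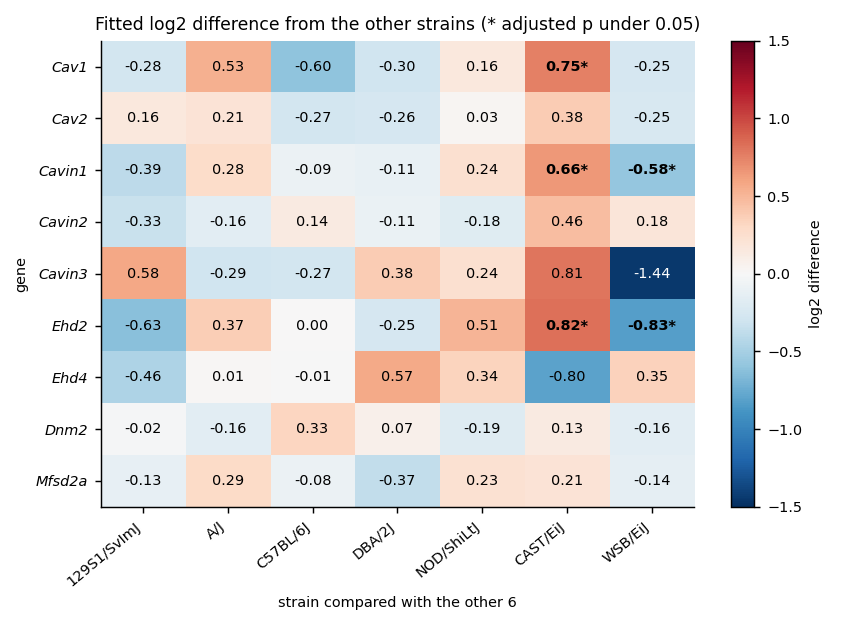
Fitted log2 difference of each member (rows) between a strain (columns) and the mean of the other 6 strains, with colour from blue (lower) to red (higher) and an asterisk where edgeR's adjusted p was under 0.05. The 5 asterisks lie in CAST/EiJ (Cav1, Cavin1 and Ehd2, all above 0) and WSB/EiJ (Cavin1 and Ehd2, both below 0), and the darkest cell, Cavin3 in WSB/EiJ at -1.44, carries none.

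The 2 wild-derived strains stood at opposite ends, and they were compared with each other, a comparison added after the strain means had been seen. CAST/EiJ exceeded WSB/EiJ in 2 of 9 members, where 1.22% of all genes were called and 0.663% as higher: Cavin1 by 1.06 ± 0.20 (log2, SE; adjusted p = 0.000618), 2.08-fold in mean CPM, and Ehd2 by 1.41 ± 0.30 (adjusted p = 0.00311), 2.66-fold. The lowest CAST/EiJ library was above the highest WSB/EiJ library for both genes (1012 against 914 CPM for Cavin1 and 203 against 174 CPM for Ehd2). Cavin3 (1.93 ± 0.55, adjusted p = 0.0578) and Cav1 (0.86 ± 0.29, adjusted p = 0.158) did not pass in edgeR, and DESeq2 called Cavin3 as well. The median of the members was 0.54 against 0.00 over all genes. The all-gene median depended on the setting: it was 0.09 with at least 1 CPM in 5 libraries and 0.29 with the 12 libraries of these strains alone. Leaving out any one of the 12 libraries kept the calls of Cavin1 and Ehd2. Within single regions, with 3 libraries a strain, neither passed, at differences of 0.98 and 1.44 in the cortex and 1.13 and 1.39 in the hippocampus.

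Marker levels moved with this contrast. The endothelial list had 9.60 ± 0.24 in CAST/EiJ and 9.14 ± 0.24 in WSB/EiJ, smooth muscle 4.17 ± 0.67 and 2.91 ± 0.27, pericytes 6.52 ± 0.25 and 7.43 ± 0.48, and neurons 4.77 ± 0.71 and 5.68 ± 0.69 on the log2(CPM + 1) scale, and their part in the result was not tested. Relative to the endothelial list of the same library, the log2 difference was 0.69 for Cavin1 (1.14 before), 1.11 for Ehd2 (1.56 before) and 0.42 for Cav1 (0.87 before). It was 2.04 for Cavin3 and 0.16 for Cav2, and below 0 for Mfsd2a (-0.17), Cavin2 (-0.19), Dnm2 (-0.18) and Ehd4 (-0.71). The ranges of the strains stayed apart for Ehd2 and overlapped for Cavin1 on this relative scale. The endothelial list holds Slc7a5 and Ly6c1 (0 to 792 CPM, at 0 in 2 libraries). The paper reports both as differing between wild-derived and long-inbred strains. The median gene of the list averaged 9.91 in CAST/EiJ and 9.58 in WSB/EiJ, nearer to each other than the list means. How far the relative differences depend on such genes was not tested.

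The study also set wild-derived against long-inbred strains. Here edgeR called 0 of 9 members, with 0.749% of all genes called, and DESeq2 called 0 members. At an unadjusted p under 0.05 stood 2041 of 29120 genes and 1 member. That member was Cavin2, at 321 ± 92.02 CPM (n = 12) in wild-derived and 243 ± 57.5 CPM (n = 31) in long-inbred strains, with ranges of 202 to 483 and 138 to 341 CPM that overlapped, a difference of 0.40 ± 0.14 (adjusted p = 0.286). Cavin1 had 909 ± 380 and 813 ± 211 CPM, a difference of 0.16 ± 0.15. When WSB/EiJ was left out Cavin1 was called by edgeR at 0.57 (adjusted p = 0.0431), and when CAST/EiJ was left out it came to -0.46 (adjusted p = 0.318).

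Between the regions edgeR called 0 of 9 members, with 0.0755% of all genes called, and DESeq2 called 0. An unadjusted p under 0.05 was held by 1631 of 29120 genes and by 1 member. Mfsd2a was that member, with 91.5 to 253 CPM, median 156 (mean 163 ± 45.1, n = 21), in the cortex and 70.2 to 349.5 CPM, median 229 (mean 230 ± 82.1, n = 22), in the hippocampus. The ranges overlapped, and the fitted difference of cortex minus hippocampus was -0.50 ± 0.16 (edgeR adjusted p = 0.389). The hippocampal library was the higher in 14 of 19 pairs of libraries that shared strain, sex and tag. The lowest hippocampal values were those of the female WSB/EiJ (70.2 CPM) and the female DBA/2J library (81.6 CPM). With strain, sex and tag combined as a block the difference was -0.45 (adjusted p = 0.351), and 1 of 16 alternatives, the default dispersion, called it.

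The fitted region difference of all 9 members was below 0, with a median of -0.11 against -0.03 over all genes. Apart from Mfsd2a the sizes were small against their errors, from -0.03 ± 0.14 for Cavin2 and -0.04 ± 0.14 for Cavin1 to -0.34 ± 0.25 for Ehd4. In the same pairs the hippocampal library was the higher in 13 of 19 for Cavin3, in 11 for Cav1, Cavin2, Ehd4 and Dnm2, in 10 for Ehd2 and in 9 for Cavin1 and Cav2.

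**Figure D3:**
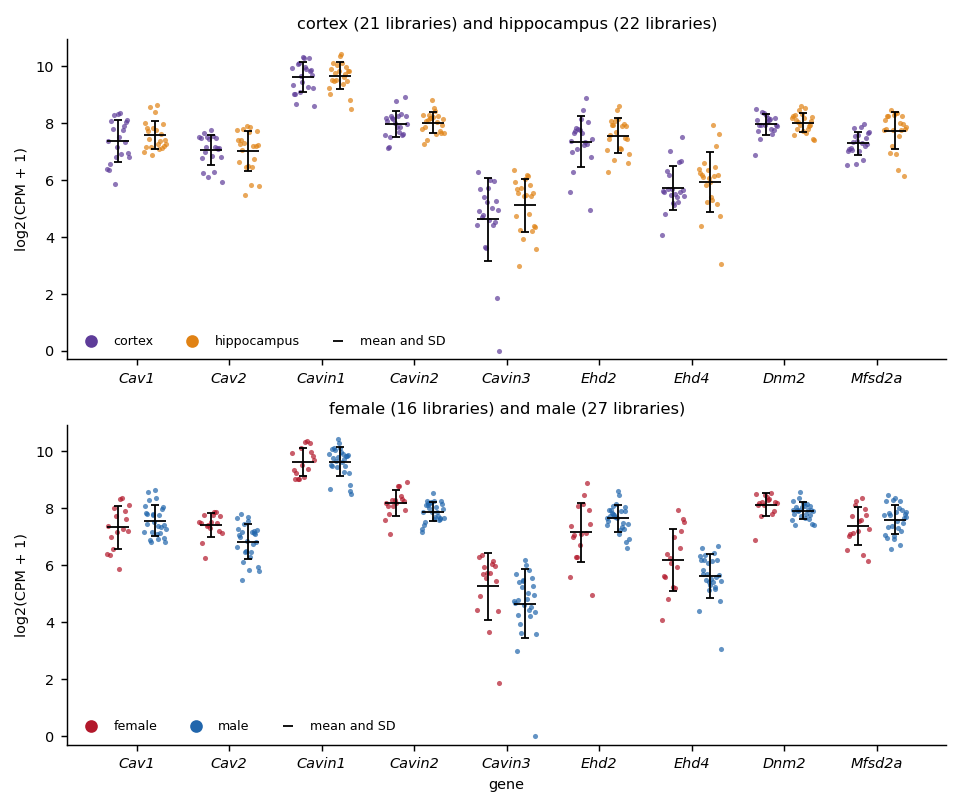
Level of each member on the log2(CPM + 1) scale in every library, by region (upper panel, 21 cortex and 22 hippocampus libraries) and by sex (lower panel, 16 female and 27 male libraries), with mean and SD. The groups overlap in all 9 genes, and the widest gaps of the means against the spread are those of Mfsd2a between regions and of Cav2 between sexes.

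Libraries titled high and low could be compared within males alone, since 15 of 16 female libraries were titled high. Here 1 of 9 members passed, Cav1, where 1.06% of 27529 genes tested were called and 0.294% as higher. Cav1 ranged from 112 to 401 CPM with a median of 238 (mean 246 ± 88.1, n = 14) in libraries tagged high and from 113 to 221 CPM with a median of 143 (mean 155 ± 36.2, n = 13) in those tagged low. The ranges overlapped, the fitted difference was 0.67 ± 0.16 (edgeR adjusted p = 0.0181), and DESeq2 called Cav1 too. In 13 pairs of the same strain and region the library tagged high was the higher in 11, and the 2 exceptions were the WSB/EiJ pairs (112 against 123 CPM in the cortex and 152 against 170 CPM in the hippocampus). The widest pair was that of the A/J hippocampus, at 383 against 173 CPM.

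The median difference of the 9 members was 0.32, against 0.04 over all genes, and 8 of 9 were above 0. Cavin3 (0.70 ± 0.35, adjusted p = 0.622), Cav2 (0.52 ± 0.20, adjusted p = 0.306), Mfsd2a (0.43 ± 0.17, adjusted p = 0.371) and Ehd2 (0.31 ± 0.16, adjusted p = 0.641) did not pass in edgeR, and Cavin1 was below 0 at -0.20 ± 0.15. The call of Cav1 was lost when the libraries of 129S1/SvImJ, A/J, C57BL/6J, CAST/EiJ, DBA/2J or NOD/ShiLtJ were left out, with adjusted p of 0.0525 to 0.097 and differences of 0.63 to 0.68. Without WSB/EiJ both Cav1 (0.75, adjusted p = 0.00446) and Cav2 (0.71, adjusted p = 0.0314) were called.

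For Cav2 and Cavin3, 3 of the 13 pairs were lower in the library tagged high, both WSB/EiJ pairs and 1 other, the NOD/ShiLtJ cortex for Cav2 (134.8 against 140.1 CPM) and the DBA/2J cortex for Cavin3 (20.4 against 31.8 CPM). Cav2 in males of WSB/EiJ was 60.1 and 55.2 CPM in libraries tagged high and 111 and 148 CPM in those tagged low, and Cavin3 was 0 and 11.04 against 29.8 and 19.4 CPM. An interaction of tag with WSB/EiJ, added after these values had been seen, called 0 of 9 members in edgeR, where 0.193% of all genes were called. In this fit 3 members, and 1653 of 27529 genes, stood at an unadjusted p under 0.05. The edgeR term was -1.88 ± 0.50 for Cav2 (adjusted p = 0.107), -3.11 ± 0.98 for Cavin3 (adjusted p = 0.24) and -0.90 ± 0.42 for Cav1 (adjusted p = 0.775). DESeq2 called 2, Cav2 (adjusted p = 0.0253) and Cavin3 (adjusted p = 0.0314).

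**Figure D4:**
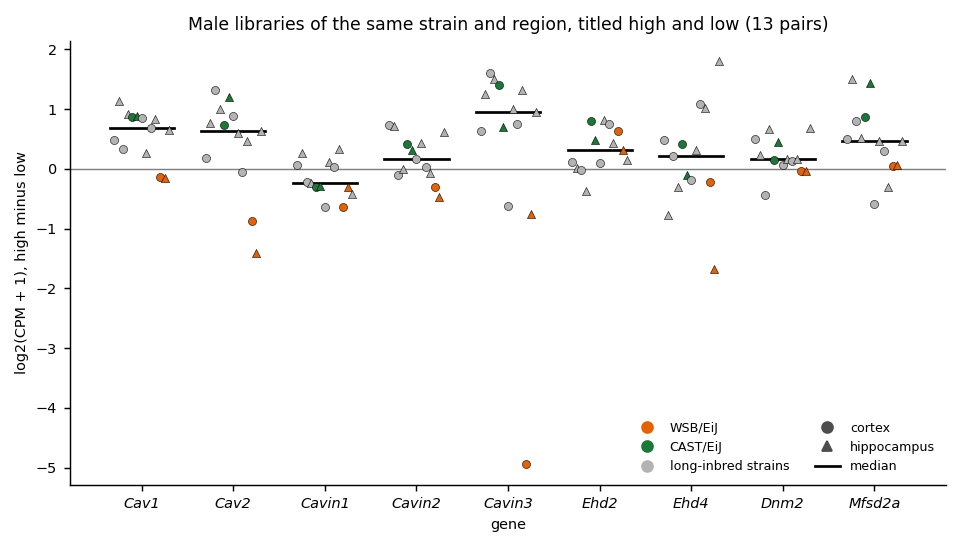
Difference on the log2(CPM + 1) scale, high minus low, in each of the 13 pairs of male libraries of the same strain and region, with a bar at the median of each member; colour marks WSB/EiJ, CAST/EiJ and the long-inbred strains, and shape the region. For Cav1 the 2 WSB/EiJ pairs are the only ones below 0, and for Cavin3 the cortical WSB/EiJ pair lies at -4.94 where the library tagged high held 0 counts.

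Markers moved with the tag. The endothelial list was 9.61 ± 0.32 in male libraries tagged high and 9.34 ± 0.14 in those tagged low, neurons 4.57 ± 0.78 and 5.75 ± 0.53, and astrocytes 6.33 ± 0.57 and 7.22 ± 0.51, and their part in the result was not tested. Relative to the endothelial list the difference of Cav1 was 0.33, against 0.60 before. On this relative scale it was 0.19 for Cav2, 0.14 for Mfsd2a, 0.09 for Cavin3 and 0.04 for Ehd2. It was below 0 for Cavin1 (-0.51), Cavin2 (-0.14), Ehd4 (-0.07) and Dnm2 (-0.07). Cavin1 did not follow Cav1: the ratio of Cavin1 to Cav1 in CPM per kb was 3.18 ± 0.93 (n = 14) in libraries tagged high and 5.70 ± 1.61 (n = 13) in those tagged low, a quantity chosen after the values were seen and given with no test.

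Between the sexes edgeR called 0 of 9 members, with 2.85% of all genes called, and DESeq2 called 0. Unadjusted p was under 0.05 in 3818 of 29120 genes and in 4 members. Ehd4 had 15.9 to 243 CPM, median 71.4 (mean 93.0 ± 67.3, n = 16), in females and 7.36 to 101 CPM, median 49.7 (mean 54.2 ± 23.2, n = 27), in males, a difference of 0.78 ± 0.24 (adjusted p = 0.0519). Its highest values were the female hippocampal libraries of DBA/2J (243 CPM) and WSB/EiJ (195 CPM) and the female cortical library of WSB/EiJ (181 CPM). Cav2 had 75.6 to 236 CPM, median 177 (mean 175 ± 44.0), in females and 43.2 to 223 CPM, median 125.1 (mean 123 ± 49.2), in males, a difference of 0.51 ± 0.17 (adjusted p = 0.0802). Both genes thus overlapped between the sexes. Cavin2 (0.33 ± 0.13, adjusted p = 0.201) and Cavin3 (0.61 ± 0.30, adjusted p = 0.356) were the other members at an unadjusted p under 0.05, while Cav1 (-0.17 ± 0.18) and Cavin1 (0.01 ± 0.14) were near 0.

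The scaling moved these values as a whole: the median difference over all genes was -0.12 with TMM and -0.24 with RLE, a shift of -0.12. With TMM the median was 0.22 over the members and 0.17 over the 8679 genes with a mean of at least 10 CPM. With RLE, Ehd4 came to 0.62 (adjusted p = 0.186) and Cav2 to 0.39 (adjusted p = 0.275). With strain and region as covariates Cavin2 (0.44, adjusted p = 0.0322) and Ehd4 (0.79, adjusted p = 0.0403) passed, and without 129S1/SvImJ, the strain with 6 of the 16 female libraries, Ehd4 passed at 1.14 (adjusted p = 0.00346). With the rRNA-like share as a covariate the difference of Ehd4 was 0.01 ± 0.45. The share did not overlap between the sexes, so this fit cannot separate it from sex. Without WSB/EiJ the difference of Ehd4 was 0.43 (edgeR adjusted p = 0.451).

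No member passed an interaction between region and origin, between sex and region, or between tag and region in males. By edgeR the share of genes called over all was 0%, 0.00343% and 0%, and 675, 1077 and 563 genes had an unadjusted p under 0.05. There were 0 members at that p in each, and DESeq2 called 0 members in each. The largest of these terms for a member was -0.61 ± 0.47, for Ehd4 between sex and region.

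Other genes of these pathways came in 3 lists, described by counts. Among strains 2 of 8 other genes of the caveola coat and neck differed (Ehd1 and Dnm3), 6 of 12 receptors and regulators of transcytosis (Alpl, Fcgrt, Insr, Lrp1, Plvap and Tfrc) and 0 of 11 genes of the clathrin coat and its adaptors, where 2.68% of all genes were called. Of the clathrin list 2 were at an unadjusted p under 0.05, as were 3107 of all 29120 genes, and 2 were called by DESeq2. Plvap was also called as higher in DBA/2J and in NOD/ShiLtJ and as lower in the cortex, with its level concentrated in 4 hippocampal libraries at 746.7, 401, 193 and 71.6 CPM. Apart from that at 71.6 CPM, these libraries also had the highest values of a choroid plexus marker list, whose part was not tested. Ehd1, a relative of Ehd2 that works in endosome recycling, was higher in CAST/EiJ by 1.41 ± 0.33 (edgeR adjusted p = 0.0074), with libraries of 32.5 to 147 CPM there and of 0 to 45.8 CPM in WSB/EiJ. Tfrc, the transferrin receptor, was higher in CAST/EiJ by 0.70 ± 0.17 (edgeR adjusted p = 0.0137). Insr, the insulin receptor, was higher in WSB/EiJ by 1.04 ± 0.16, with 381 to 632 CPM in all 6 libraries against 105 to 352 CPM in the 37 others, and Lrp1, a large lipoprotein receptor, by 0.76 ± 0.21 (edgeR adjusted p = 0.029).

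Insr was also higher in wild-derived than in long-inbred strains, by 0.68 ± 0.15 (edgeR adjusted p = 0.0074). In 129S1/SvImJ, where 1.46% of all genes were called, Alpl, an alkaline phosphatase (-0.85 ± 0.22), Insr (-0.62 ± 0.16) and Ap2b1, a subunit of the clathrin adaptor AP2 (-0.66 ± 0.17), were lower by edgeR. Most libraries of this strain were female. With sex, region and tag as covariates 136 of 25275 genes were called in it, against 426 of 29120 without. In the direct comparison CAST/EiJ was lower in Lrp1 (-1.33) and Insr (-0.94) and higher in Tfrc (1.09) and Ehd1 (1.89), all called by edgeR. In males tagged high, where 1.06% of all genes were called, 2 of 31 list genes passed: Pacsin1, a mostly neuronal relative of the caveola neck protein Pacsin2, was lower at -1.421 ± 0.31 (log2, edgeR adjusted p = 0.0075), and Epn1, a clathrin adaptor, was at -0.74 ± 0.16 (edgeR adjusted p = 0.0066). Between the sexes the clathrin light chains Clta (0.97 ± 0.16) and Cltb (0.78 ± 0.15) were called as higher in females by edgeR, 2 of 31 list genes, where 2.85% of all genes were called.

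Across the 43 libraries the members varied together weakly. Of the 36 pairs of members, 34 had a Pearson's r of log2(CPM + 1) above 0, and 30 had r above 0 within each sex. In all, 8 passed a permutation test (100000 resamples, two-sided, Benjamini-Hochberg over the 36 pairs) with Pearson's r, 8 with Spearman's rho and 7 with both. By Pearson's r the closest pair was Cavin2 and Dnm2 (r = 0.53, permutation adjusted p = 0.009, rho = 0.57, permutation adjusted p = 0.001), with r of 0.53 in females and 0.42 in males and 0.55 without the 2 libraries farthest from the median. By Spearman's rho it was Cavin1 and Ehd2 (rho = 0.69, permutation adjusted p = 0.00036), which had r = 0.50 (permutation adjusted p = 0.013), with 0.54 in females, 0.61 in males and 0.53 without the 2 farthest libraries. These pairs share their library, its strain, its depth and its makeup of cells, and the permutation did not keep strains apart.

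The neighbours Cav1 and Cav2 had r = 0.42 (permutation adjusted p = 0.023) and rho = 0.44, with 0.35 in females, 0.75 in males and 0.49 without the 2 farthest libraries. Mfsd2a, which counters caveolae, was related to Cav1 in the positive direction (r = 0.42, permutation adjusted p = 0.023, rho = 0.42; 0.44 without the 2 farthest libraries) and stood near 0 with Cav2 (r = -0.00) and Ehd4 (r = -0.09). Cav1 was also related to Ehd2 (r = 0.45, rho = 0.55) and Cavin1 (r = 0.43, rho = 0.44), and Cav2 to Cavin3 (r = 0.43, rho = 0.44).

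**Figure D5:**
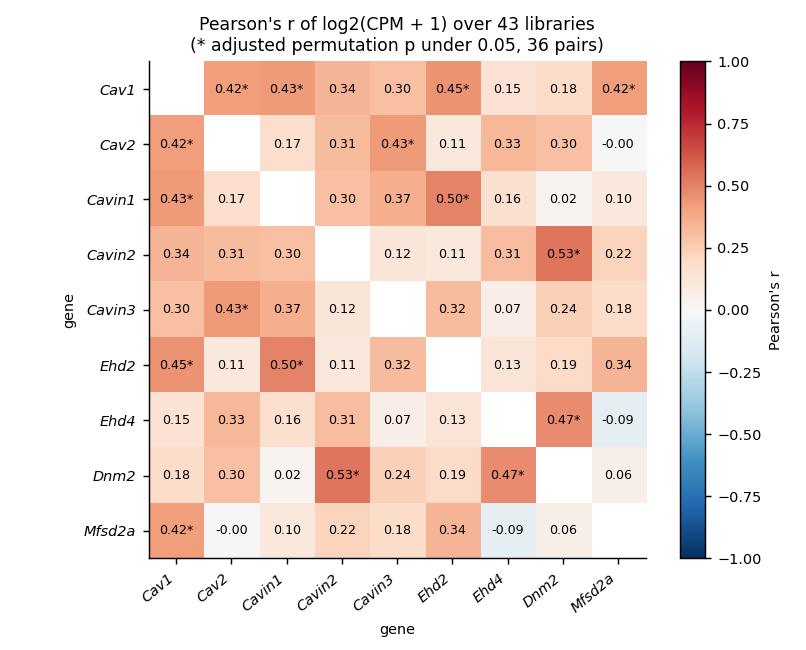
Pearson's r of log2(CPM + 1) over 43 libraries for each pair of members, with colour from blue (below 0) to red (above 0) and an asterisk where the permutation p adjusted over 36 pairs was under 0.05. The highest value is 0.53 for Cavin2 with Dnm2, and the lowest is -0.09 for Mfsd2a with Ehd4.

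Among 8679 genes with a mean of at least 10 CPM, those whose pattern over the 43 libraries was most like each member were named by Pearson's r, as a description with no test. For Mfsd2a they were Sun2 (r = 0.63), Phb2 (0.62) and the tight junction gene Cldn5 (0.61), for Cav1 Arhgef3 (0.75), Zfp36l1 (0.74) and Ackr3 (0.73), and for Cav2 Cnbp (0.80), Skiv2l2 (0.73) and Ppib (0.71). Cavin1 was most like Kctd12 (0.75), Kctd10 (0.71) and G3bp1 (0.68), Cavin2 like Mcl1 (0.67), Dido1 (0.66) and Txnl1 (0.65), and Cavin3 like Gpx1 (0.82), Tmx3 (0.78) and Csf1 (0.77). For Ehd2 the amino acid transporter Slc38a5 (0.81), Cyfip1 (0.80) and Nynrin (0.76) came first, for Ehd4 Sf3a2 (0.69), Ppp4c (0.65) and Jrkl (0.65), and for Dnm2 Ushbp1 (0.74), Creb3 (0.72) and Tgfbr2 (0.69). No member was among the 3 genes nearest to another.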

How the data were processed

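The authors deposited raw counts per gene, with no normalization, for 54532 Ensembl genes in 43 libraries. Per the labels and the paper's methods, total RNA libraries made after rRNA depletion were aligned to mm10 with HISAT2 2.1.0, handled with SAMtools 1.9 and counted with featureCounts (Subread 1.4.4). Identifiers were matched to GENCODE M21 (54409 of 54532) for positions and transcript lengths.

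CPM were computed with TMM factors from edgeR 4.0.16 in R 4.3.3. All comparisons used the two-sided quasi-likelihood test of edgeR with bias-adjusted deviances and a trended dispersion, fitted on all genes of at least 0.5 CPM in at least 1 library, with Benjamini-Hochberg adjustment at 0.05 and, as in the study, no covariates. This dispersion setting was picked on simulated counts after edgeR's defaults had been seen to call many more genes. Those counts were drawn with the trended dispersion itself, so they cannot decide between this setting and the defaults. On simulated data with changed genes, false calls exceeded the nominal rate most in the test among strains, nearly all of them in genes under 10 CPM. DESeq2 1.42.0 was the alternative tool. Fits with covariates dropped genes with a fitted count above 5 times their highest observed one. Correlations, ratios and figures were made in Python 3.11.15 (numpy 2.4.6, scipy 1.17.1, pandas 2.3.3).

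The members, lists and tests were chosen with earlier results of these data known. The genes named were all 9 members, the called genes of 3 pathway lists, and the 3 genes most like each member. Other settings tried were the scaling, the filter, the dispersion, equal depth, covariates, single regions, males alone, and strains or libraries left out. No 2 libraries were identical (highest pairwise r 0.966). Library depth limits what low values show.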

Additional observations from a re-analysis of the deposited data

Results flagged for a closer look

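In 5 of 63 groups (each member within each strain) 1 library stood apart from the others by Dixon's criterion at the 95% level, and chance flags about 1 in 20 groups. The female cortical WSB/EiJ library had 275.8 CPM of Cav1, against 112 to 170 CPM in the other 5 libraries of the strain, and 482.9 CPM of Cavin2, against 202 to 306 CPM. The same library had the lowest Ehd2 value of the 43, 30.3 CPM. In DBA/2J the male hippocampal library tagged high had 240.0 CPM of Ehd2, against 136 to 160 CPM in the other 4, and the female hippocampal library had 243 CPM of Ehd4, against 36.4 to 86.3 CPM. In NOD/ShiLtJ the female cortical library had 476 CPM of Ehd2, against 155 to 261 CPM in the other 5. No interaction called a member by edgeR.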

How the results depend on the processing

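None of the called differences of a member changed direction in the alternatives run, while Cavin1 between origins, not called at 0.16, came to -0.06 in males alone and to -0.46 without CAST/EiJ. Of the 9 members, 3 differed among strains, 0 with cortex or hippocampus libraries alone, and 2 to 3 when single libraries of A/J, DBA/2J, CAST/EiJ or WSB/EiJ were left out. Of the 63 comparisons of a member in a strain with the other strains, 5 passed, and 2 with RLE scaling, 8 with the default dispersion, 3 with males alone and 2 to 5 with single libraries left out. The default dispersion called 1 member for origin, 1 for region, 3 for the tag and 3 for sex, and also far more of all genes. For origin, 1 member passed without WSB/EiJ. For the tag, 1 member passed, 0 within the cortex or the hippocampus, 0 without 129S1/SvImJ, A/J, C57BL/6J, CAST/EiJ, DBA/2J or NOD/ShiLtJ, and 2 without WSB/EiJ. For sex, where 0 passed, 1 did with at least 1 CPM in 5 libraries, 2 with strain and region as covariates and 1 without 129S1/SvImJ. Between CAST/EiJ and WSB/EiJ, 2 passed, 0 within a region, and 2 to 3 with single libraries left out. For the interaction of tag with WSB/EiJ, DESeq2 called 2. Single regions hold fewer libraries, and the cause of the other changes was not tested. The comparison of CAST/EiJ with WSB/EiJ, its alternatives, the libraries of these strains left out and the interaction of tag with WSB/EiJ were added after seeing the data. Pairing by mouse was not possible because no label names the mouse behind a library, and the pairs and the block given in the report match libraries by strain, sex, tag or region only.

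Depth limits Cavin3 and Ehd4 most, as the members with the fewest counts, above all in WSB/EiJ.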

Other observations

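Plvap, which forms the diaphragm of caveolae and of fenestrae in vessels without a barrier, was near 0 in most libraries (median 0.19 CPM over 43) and high in a few from the hippocampus. The highest were the female DBA/2J library (746.7 CPM), the female NOD/ShiLtJ library (401 CPM) and the male DBA/2J libraries tagged high (193 CPM) and low (71.6 CPM). A choroid plexus marker list, chosen after these values had been seen, was averaged on the log2(CPM + 1) scale. It had 1.59 ± 1.48 in DBA/2J and 1.51 ± 1.58 in NOD/ShiLtJ, against 0.83 ± 0.97 over all libraries. By library, the list was highest in the female hippocampal libraries of NOD/ShiLtJ and DBA/2J and the male hippocampal DBA/2J library tagged high. These were also the libraries with the most Plvap. The male hippocampal DBA/2J library tagged low was exceeded by others, among them the female cortical WSB/EiJ library. Both cortical DBA/2J libraries lay below the mean over all libraries. The part of the list in the Plvap values was not tested.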
